A study of Mus musculus with 34 samples.

Results

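The messenger RNAs of the cytosolic ribosomal proteins were followed in 34 polyadenylated RNA libraries from mouse pluripotent cells and the endoderm made from them. The genes were chosen by symbol alone: every row of the count tables that begins with Rpl or Rps and a digit, plus Rpsa, Rplp0, Rplp1 and Rplp2, without named pseudogene rows, the S6 kinases and the Rps19 binding protein. This gave 90 of 53655 rows. They comprised 43 genes of the large (60S) subunit, 31 of the small (40S) subunit and 3 of the acidic stalk, together 77 core genes. The other 13 rows were 7 paralogs and 6 rows of retrocopies, 5 of them annotated as pseudogenes and 1, Rps27rt, as protein coding.

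The libraries came from epiblast stem cell (EpiSC) lines of 7 inbred strains and from definitive endoderm (DE) differentiated from these lines. EpiSCs are pluripotent cells like those of the post-implantation epiblast. They were grown on irradiated mouse embryonic fibroblasts in N2B27 medium with FGF at 12.5 ng/mL, activin at 20 ng/mL and the tankyrase inhibitor NVP-TNKS656 at 175 nM. For DE, the cells received the GSK3 inhibitor CHIR at 3 uM with activin at 40 ng/mL for 16 h. Activin was then raised to 100 ng/mL for 24 h, together with 100 nM of LDN-193189, which blocks BMP receptors, and CXCR4+ cells were sorted after 40 h in all. The EpiSC group held 5 C57BL/6J, 3 PWK/PhJ, 2 NOD/ShiLtJ, 2 NZO/HiLtJ, 2 WSB/EiJ, 2 CAST/EiJ and 1 DBA/2J library. The DE group held 5 C57BL/6J, 4 PWK/PhJ, 2 NOD/ShiLtJ, 2 NZO/HiLtJ, 2 WSB/EiJ, 1 CAST/EiJ and 1 DBA/2J library. No line carried an engineered allele by its label. Each library is a different cell line within its cell type, and 16 lines gave both an EpiSC and a DE library. Whether the lines of a strain came from separate embryos was not given in the sources used here, so p-values measure the spread between lines.

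Ribosomal proteins assemble with ribosomal RNA in the nucleolus into the large subunit, which forms peptide bonds, and the small subunit, which reads the messenger RNA. Most of their messages begin with a 5′ terminal oligopyrimidine (TOP) tract, through which the growth kinase mTOR and the RNA-binding protein Larp1 control their translation. The mammalian genome holds many processed copies of these genes, so short reads from a ribosomal protein message can match more than a single place.

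The sequence around the RefSeq transcription start was searched for this tract. These windows (GRCm38.p6, 15 bases on each side of the start, 5′ to 3′ on the gene's strand) belong to 4 core genes among those with the widest fall in DE and to 3 genes that were higher in DE. Capitals mark the longest pyrimidine run at or within 5 bases of the start. By this rule it is long in Rpl7a, Rpl27a and Rpl28 and short in Rps12 and the 3 higher genes. In Rps12 and Rpl13, for example, a longer run lies outside those 5 bases.
Rpl7a, chr2:26910792-26910821, plus strand: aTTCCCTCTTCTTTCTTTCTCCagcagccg
Rpl27a, chr7:109519180-109519209, plus strand: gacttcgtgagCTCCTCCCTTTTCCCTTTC
Rpl28, chr7:4792950-4792979, plus strand: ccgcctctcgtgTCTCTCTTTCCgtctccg
Rps12, chr10:23787195-23787224, minus strand: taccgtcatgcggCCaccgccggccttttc
Rpl13, chr8:123102335-123102364, plus strand: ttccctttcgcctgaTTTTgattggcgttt
Rpl7l1, chr17:46782642-46782671, minus strand: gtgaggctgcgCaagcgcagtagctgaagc
Rpl36al, chr12:69184053-69184082, minus strand: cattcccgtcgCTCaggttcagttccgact

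A RefSeq promoter (250 bases before to 50 after the start) was matched for 66 of the 90 genes. For 57 core genes there were 67 promoters, since some genes have more than 1 start. A run of at least 8 pyrimidines lay at or within 5 bases of the start in 32.8% of them, against 9.72% of all 32851 promoters. The letters CGGAAG, part of the ETS-factor motif, stood on either strand in 62.7% of core promoters against 16.9% of all. TATAAA was found in 8.96% against 13.6%, and the E-box CACGTG in 11.9% against 7.15%. These are matches of letters and say nothing of binding or of the true start used in these cells. The 22 core genes with the long run had a median log2 difference between DE and EpiSC of -1.22, and the 35 with a shorter run or none had -1.27, so the tract as read here did not divide the genes by how far they moved.

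Total counts per library were 25584647 to 33831684 in EpiSC (median 27701853) and 23772045 to 67722013 in DE (median 27977897). The EpiSC libraries were made with a stranded TruSeq kit and the DE libraries with SMART-Seq v4 amplification for 12 cycles, so kit and cell type cannot be told apart in any EpiSC to DE difference. The labels held up against their markers: 7 of 7 endoderm genes were higher in DE, where Sox17 averaged 1020 ± 320 CPM (counts scaled to a common library size after TMM normalization; SD, n = 17) against 7.51 ± 8.21 in EpiSC, and Pou5f1 averaged 10.8 ± 20.0 against 586 ± 96.9. Fgf5 and Otx2, on the EpiSC list, were higher in DE. Of 15 fibroblast genes, 12 were lower in DE, and their summed level was 92.9 to 3940 CPM in EpiSC and 140 to 1570 in DE. The mitochondrial share of counts was 1.62 to 2.42% in EpiSC and 0.519 to 2.13% in DE. The part of fibroblast RNA and RNA quality in the differences below was not tested beyond the covariate fits named with them.

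A single library stood apart for these genes, the DE library of C57BL/6J line 2. It had the highest level of all 17 DE libraries for 75 of 77 core genes, while it was highest for 14% of all 19290 genes tested. The comparison of cell types and the strain contrasts in DE are therefore given with and without it. In addition, C57BL/6J lines 2 and 44 differed from lines 1, 4 and 5-1 at several retrocopy rows in both cell types, described further on.

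Ribosomal protein transcripts took a smaller share of the counts in DE than in EpiSC. The 90 genes held 4.5 to 6.01% of the counts of an EpiSC library (median 5.38%) and 2.12 to 5.46% of a DE library (median 2.52%). Without the DE library of line 2 the DE range was 2.12 to 3.29%, wholly below the EpiSC range. In EpiSC the 60S genes held a median of 2.79%, the 40S genes 2.17% and the stalk genes 0.288%, and in DE these medians were 1.28%, 0.977% and 0.181%. The summed share of the paralogs went the other way, from a median of 0.0439% (0.0399 to 0.049%) to 0.0622% (0.0508 to 0.104%), and the ranges did not overlap. This sum was mostly Rpl7l1 and Rps27l, while the paralogs Rpl22l1 and Rpl39l were lower in DE. Among the 16 lines with both libraries, the share of the core genes in DE was 0.363 to 0.596 times that in EpiSC for 15 lines, and 1.0 times for line 2, where it went from 5.32 to 5.33%. Fewer cells of a type and less RNA per cell cannot be told apart in such bulk values.

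**Figure D1:**
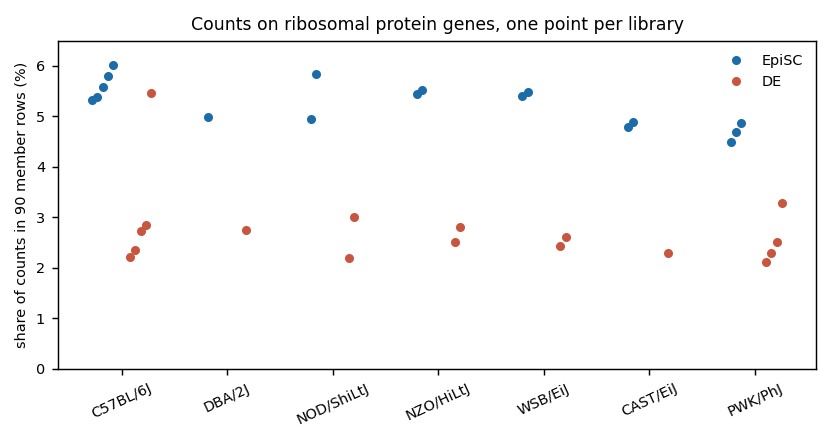
Share of each library's counts (percent, y axis) taken by the 90 ribosomal protein genes, by strain and cell type, 1 point per library. DE libraries sit between 2.12 and 3.29% except that of C57BL/6J line 2 at 5.46%, and EpiSC libraries between 4.5 and 6.01%.

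Levels per transcript length differed widely between the genes. In EpiSC the highest were Rps12, a small-subunit protein whose gene also holds small nucleolar RNAs in its introns, at a median of 2420 CPM per kb (1760 to 2950), Rpl41, which encodes a very short peptide of the large subunit, at 1970 (1480 to 2470), and the stalk gene Rplp1 at 1930 (792 to 2470). These ranges overlap. In DE the order began with Rpl4 at 1010 CPM per kb (794 to 1500), Rpl13 at 1000 (578 to 2460) and Rps2, whose protein lies at the messenger RNA entry of the small subunit, at 984 (435 to 2290), which do not differ beyond their spread. The muscle paralog Rpl3l, the testis paralog Rpl10l and the retrocopy Rps12l1 were near 0 in both cell types and were too low to test. Rpl3l had 29 counts over all EpiSC and 71 over all DE libraries, and Rpl10l had 14 and 0. Rps12l1 had 0 counts in every library. All of its 100-base stretches are shared with other genes, so its reads could be lost where reads with several matches were dropped, and its level is not known. For Rpl10l, 0 counts in the pooled DE libraries allow up to 0.00495 CPM by counting error only.

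Of the 87 genes tested, 73 were lower and 6 higher in DE than in EpiSC (edgeR quasi-likelihood test with strain in the model, Benjamini-Hochberg adjusted p under 0.05). Among all 20907 genes tested, 39.9% were called lower and 37.3% higher, 77.2% in either direction. The median log2 difference was -1.20 over the 87 genes and -0.06 over all genes. In the large subunit 39 of 43 genes were lower and 1 higher, with a median of -1.23. In the small subunit 29 of 31 were lower, with a median of -1.25, and 3 of 3 stalk genes were lower, with a median of -0.90. In 22 of the 87 genes every DE library lay below every EpiSC library, against 10.1% of all genes, and in 2, Rps27rt and Rpl7l1, every DE library lay above, against 8.56%. With the DE library of line 2 set aside this number was 52, against 10.5% of all genes. Within lines, 40 of 87 genes were lower in DE in all 16 lines, against 18.6% of all genes. In the 15 lines other than line 2, 71 of 87 were, against 19.4%.

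**Figure D2:**
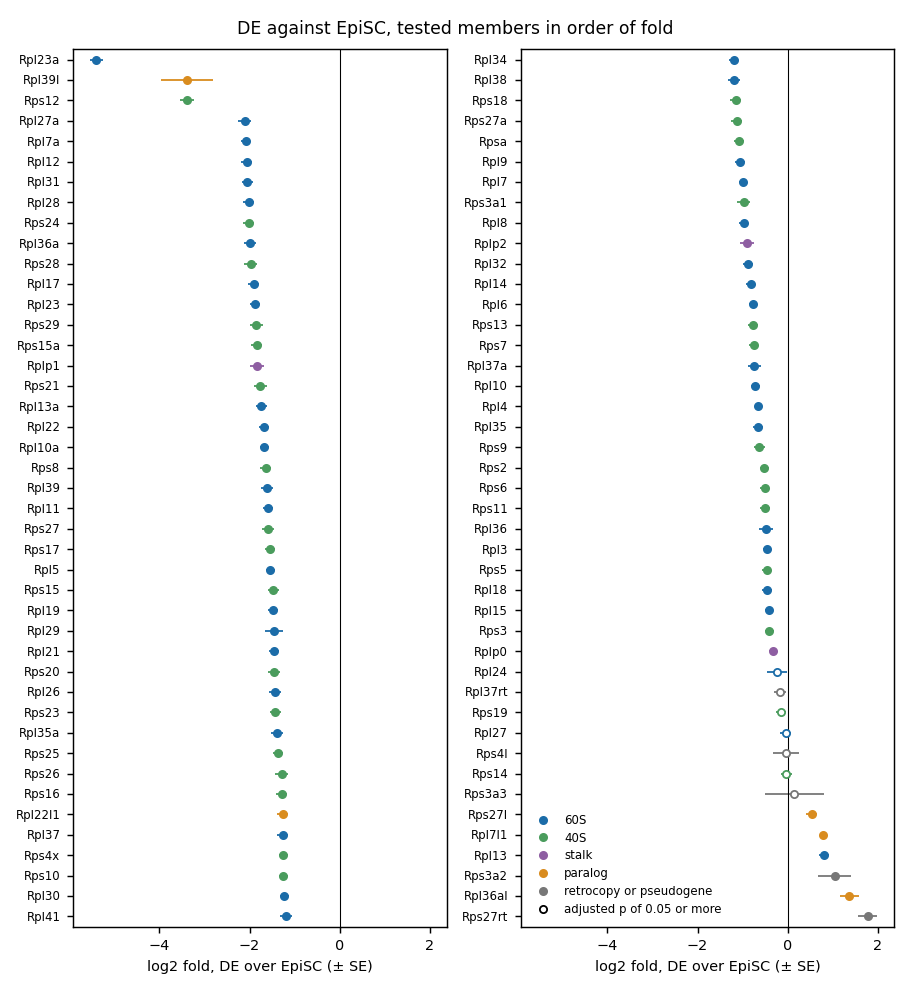
Log2 difference of DE against EpiSC (x axis; bars are the SE) for 86 of the 87 genes tested, sorted and coloured by class; open points have an edgeR adjusted p of 0.05 or more. Nearly all core genes lie left of 0 around a median of -1.25, Rpl23a lies at -5.40 and Rpl13 is the core gene on the right at 0.81.

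The widest difference was that of Rpl23a, which lies near the exit of the peptide tunnel of the large subunit. Its level was 231 to 426 CPM in EpiSC (median 346) and 5.04 to 16.3 in DE (median 7.56). The groups lay far apart, with a log2 difference of -5.40 ± 0.14 (SE; edgeR adjusted p = 1.67e-24). The gene lies on chr11:78180932-78183584, minus strand (GRCm38), and 55.4% of its exon bases are overlapped by Tlcd1 on the opposite strand; the strand setting of the counting was not given in the sources used here, and its part in the result was not tested. Rps12 had 868 to 1460 CPM in EpiSC (median 1190) and 67.4 to 288 in DE (median 99.4). Again no DE library reached an EpiSC library, and the log2 difference was -3.39 ± 0.15 (edgeR adjusted p = 3.66e-19).

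The other core genes among the 8 widest falls encode large-subunit proteins and differed by similar amounts. Rpl27a had 336 to 686 CPM in EpiSC and 78.9 to 259 in DE (median 100), a log2 difference of -2.11 ± 0.14 (edgeR adjusted p = 5.79e-15). Rpl7a had 703 to 1690 CPM (median 1510) and 154 to 727 (median 315), a difference of -2.09 ± 0.10 (edgeR adjusted p = 6.04e-18); here the highest DE library, of line 2, lay above the lowest EpiSC library. Rpl12, part of the base of the stalk, had 377 to 1060 CPM (median 865) and 67.4 to 469 (median 176), a difference of -2.07 ± 0.12 (edgeR adjusted p = 4.1e-16), with the same overlap. Rpl31 and Rpl28 did not overlap between the groups: Rpl31 went from a median of 600 CPM (543 to 710) to 136 (100 to 324), and Rpl28 from 685 (590 to 779) to 154 (107 to 355). Their log2 differences were -2.05 ± 0.12 and -2.02 ± 0.12. The stalk proteins, which recruit the elongation factors, moved unequally. The log2 difference was -1.84 ± 0.16 for Rplp1, -0.90 ± 0.15 for Rplp2 and -0.33 ± 0.08 for Rplp0, the protein that anchors the other two (edgeR adjusted p = 3.86e-12, 2.68e-06 and 0.000229).

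Only Rpl13 of the core genes was higher in DE. Its level was 296 to 643 CPM in EpiSC (median 533) and 451 to 1920 in DE (median 780). The ranges overlap across strains, but DE was higher within each of the 16 lines, and the log2 difference was 0.81 ± 0.11 (edgeR adjusted p = 6.35e-08). Among the core genes that did not pass the test were Rpl24 at -0.23 ± 0.22 (adjusted p = 0.329), Rps19, a gene mutated in Diamond-Blackfan anemia, at -0.14 ± 0.11 (0.251), Rpl27 at -0.04 ± 0.12 (0.761) and Rps14 at -0.03 ± 0.12 (0.846), all by edgeR. Rpl24 was read at medians of only 0.827 CPM in EpiSC and 0.636 in DE, and 71.5% of its exon bases are shared with Gm28037. Without the DE library of line 2, 82 genes were called, 76 lower and 6 higher, with a median of -1.34. Among those added were Rps19 at -0.28 ± 0.08 (edgeR adjusted p = 0.00135) and Rps14 at -0.19 ± 0.07 (0.0115). The share of all genes called without this library is not given here, so the change in count is not read as a result about these genes.

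Among the paralogs 3 were higher and 2 lower. Rpl7l1, a relative of Rpl7, had 189 to 252 CPM in EpiSC (median 218) and 301 to 482 in DE (median 368). No library of the groups overlapped, and the log2 difference was 0.78 ± 0.06 (edgeR adjusted p = 4.78e-13). Rps27l, a p53 target, had 149 to 200 CPM (median 180) and 144 to 509 (median 235), a difference of 0.53 ± 0.13 (edgeR adjusted p = 0.000387). Rpl36al was low, at 0.515 to 1.75 CPM (median 1.14) and 1.26 to 6.31 (median 3.04), a difference of 1.37 ± 0.21 (edgeR adjusted p = 5.21e-07), and 63.1% of its exon bases are shared with the overlapping gene Gm49383. Rpl22l1, which can replace Rpl22, was lower in DE, at 34 to 65.9 CPM (median 55.1) in EpiSC and 14.3 to 45.7 (median 19.8) in DE, a difference of -1.27 ± 0.13 (edgeR adjusted p = 3.16e-10). Its partner Rpl22 differed by -1.69 ± 0.11.

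Rpl39l, the testis-enriched relative of Rpl39, was at the edge of detection. It had 0.0385 to 2.51 CPM in EpiSC (median 0.83) and 0 to 0.55 in DE (median 0.0385), a log2 difference of -3.39 ± 0.58 (edgeR adjusted p = 5e-06). With the fibroblast marker score as a covariate the difference was -0.06 and the adjusted p 0.994. Of the retrocopy rows, Rps27rt was higher in DE, at 2.1 to 9.65 CPM (median 2.81) against 0.466 to 1.89 in EpiSC (median 0.919), a difference of 1.78 ± 0.21 (edgeR adjusted p = 5.7e-09). Rps3a2 differed by 1.04 ± 0.37 (edgeR adjusted p = 0.0129), and without the strain term its adjusted p was 0.0935.

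The size of the difference varied with transcript length at the short end. The 17 core genes with a transcript under 500 nt had a median log2 difference of -1.59, the 21 of 500 to 700 nt -1.13, the 22 of 700 to 1000 nt -1.12 and the 17 of at least 1000 nt -1.09. Across the 77 genes, which share libraries and are not independent, Spearman's rho was 0.18 with transcript length and 0.28 with GC content. The kit differs with the cell type, and its part in this pattern cannot be told apart from it.

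Other genes of the translation machinery give the setting. In this comparison 39.9% of all genes were called lower and 37.3% higher. Of 22 tested translation factors and further TOP messages, 18 were lower and 2 higher in DE, with a median of -0.53; the poly(A)-binding protein gene Pabpc1 went from 2220 ± 243 CPM (SD, n = 17) to 380 ± 86.1, a log2 difference of -2.54 ± 0.09. Of 30 ribosome biogenesis genes 25 were lower and 1 higher, with a median of -0.61, and the nucleolar helicase gene Ddx21 differed by -2.87 ± 0.08. Of 18 regulators 9 were lower and 4 higher. In either direction 72.2% were called, against 77.2% of all genes, so the count is close to the background. The widest falls called were Eif4ebp2, a repressor of cap-dependent translation, at -2.42 ± 0.07 and Mtor at -2.02 ± 0.09. The widest rises were Mycl at 2.35 ± 0.10 and the mTOR activator Rheb at 1.19 ± 0.06. Mitochondrial ribosomal proteins, made in the cytosol for a different ribosome, stood on the other side: 49 of 76 were higher and 9 lower, with a median of 0.39. Examples were Mrps24 at 1.63 and Mrps12 at 1.55, and Mrps18b at -1.03.

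In the DE library of C57BL/6J line 2 most core genes were higher than in the other C57BL/6J DE libraries, though not all near their EpiSC level. Rpl23a stood at 16.3 CPM there against 331 in the EpiSC library of the line, while Rpl13, at 1920, was above all EpiSC libraries. Relative to the median of the DE libraries its core genes deviated by a median of 1.28 log2 units (quartiles 1.19 and 1.42), while the other DE libraries ranged from -0.34 to 0.37 and the EpiSC libraries, against their own median, from -0.24 to 0.18. Against the other 4 C57BL/6J DE lines, 75 of 77 core genes were above all of them, compared with 28.5% of all genes, and the median distance was 1.36 for core genes and -0.02 for all genes. Rps2, for example, had a log2 CPM of 11.16 there against 9.94 to 10.27 in the other C57BL/6J DE lines. Summed marker levels of this library were within the DE range: endoderm markers came to 9490 CPM (1260 to 13400 over all DE), EpiSC markers to 2370 (822 to 2840) and fibroblast markers to 378 (140 to 1570). The EpiSC sum was mostly Fgf5 at 1670 CPM and Otx2 at 651, both higher in DE, so it cannot show remaining EpiSC RNA. The EpiSC markers that fell in DE lay above the median of the other DE libraries but within their range. Pou5f1 was 12.6 CPM (other DE median 2.56, highest 83.6), Sox2 2.61 (0.467, 16.4), Nanog 12.1 (8.79, 50.9) and Utf1 26.4 (7.17, 62.1). The part of this in the result was not tested. Of the 7 endoderm markers, Sox17 at 1400 CPM and Gsc at 827 were above every other DE library (at most 1350 and 662). The mitochondrial ribosomal protein genes took 0.766% of its counts, against 0.409 to 0.614% in the other DE libraries. The EpiSC library of the same line did not stand apart, with a median deviation of 0.0.

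**Figure D3:**
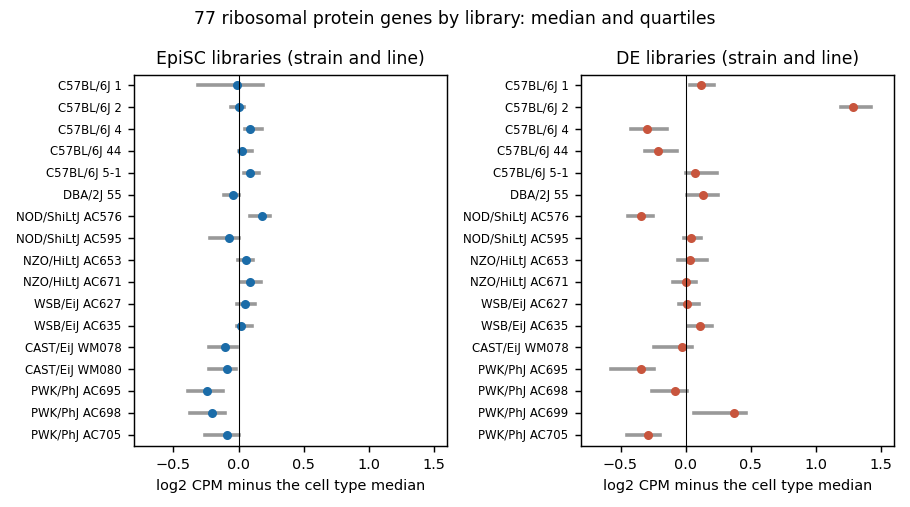
Median (point) and quartiles (bar) of the log2 deviation of the 77 core genes in each library from the median of its cell type. The DE library of C57BL/6J line 2 lies at 1.28, and the other 33 libraries lie between -0.34 and 0.37.

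The question of strain differences was put to EpiSC first. An F test of PWK/PhJ, NOD/ShiLtJ, NZO/HiLtJ and WSB/EiJ against C57BL/6J called 39 of 87 genes (edgeR adjusted p under 0.05). Among all 17868 genes tested 40% were called, so the count is close to the background. CAST/EiJ and DBA/2J were not in this test. Rps6, for example, was lower in CAST/EiJ at -0.86 (edgeR adjusted p = 5.41e-06) but was not called by the F test (edgeR adjusted p = 0.103). By class, 23 of 43 large-subunit genes, 11 of 31 small-subunit genes, 1 of 3 stalk genes, 2 of 5 paralogs and 2 of 5 retrocopy rows were called. The smallest adjusted p-values belonged to Rpl35a (1.22e-09), Rpl37rt (1.31e-09), Rps18 (2.79e-08), Rpl26 (7.43e-08), Rpl21 (9.46e-08) and Rpl12 (8.5e-07). The reads of all strains were placed on a genome of C57BL/6J sequence, so that alignment and expression cannot be told apart in these differences.

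Rpl35a (chr16:33056453-33060189, plus strand, GRCm38), a large-subunit gene, split the strains in 2 sets. Its level was 444, 375, 407, 386 and 390 CPM in C57BL/6J lines 1, 2, 4, 5-1 and 44 and 355 in DBA/2J. It was 144, 150 and 139 CPM in PWK/PhJ, 154 and 168 in NOD/ShiLtJ, 149 and 155 in NZO/HiLtJ, 138 and 142 in WSB/EiJ, and 137 and 142 in CAST/EiJ. No library of the lower set came near the upper set. The log2 difference from C57BL/6J was -1.47 ± 0.07 for PWK/PhJ, -1.31 ± 0.08 for NOD/ShiLtJ, -1.40 ± 0.08 for NZO/HiLtJ, -1.53 ± 0.08 for WSB/EiJ and -1.52 ± 0.08 for CAST/EiJ (edgeR adjusted p = 2.65e-09, 2.59e-07, 1.3e-07, 3.54e-08 and 1.27e-08). Its transcript shares exact 100-base stretches with 12 other genes over 34.2% of its length.

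Rps18 (chr17:33951999-33956001, minus strand), a protein of the small-subunit head, set C57BL/6J apart from the rest. It had 807, 838, 930, 882 and 895 CPM in C57BL/6J lines 1, 2, 4, 5-1 and 44, and between 416 and 482 in every library of the other strains. The differences from C57BL/6J were -1.03 ± 0.06 for PWK/PhJ, -0.92 ± 0.07 for NOD/ShiLtJ, -0.97 ± 0.07 for NZO/HiLtJ, -1.01 ± 0.07 for WSB/EiJ and -1.03 ± 0.07 for CAST/EiJ, each called by edgeR.

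Rpl26 (chr11:68901583-68906989, plus strand), a large-subunit protein that also binds p53 mRNA, was low in NZO/HiLtJ. That strain had 154 and 157 CPM, and all other EpiSC libraries had 491 to 667. The log2 difference of NZO/HiLtJ from C57BL/6J was -1.96 ± 0.10 (edgeR adjusted p = 4.23e-08). The same strain was low in DE, at 32.4 and 24.2 CPM against 497, 175, 221, 162 and 220 in the C57BL/6J lines 2, 44, 5-1, 4 and 1, a difference of -3.10 ± 0.44 (edgeR adjusted p = 0.00157), or -2.71 ± 0.26 (8.87e-05) without line 2. That DE call was lost when NZO/HiLtJ line AC653 was left out.

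Rpl29 (chr9:106429454-106431568, plus strand), a heparin-binding large-subunit protein, varied within C57BL/6J as well. It had 375, 360, 606, 618 and 133 CPM in C57BL/6J EpiSC lines 1, 2, 4, 5-1 and 44. NOD/ShiLtJ had 97.6 and 111, NZO/HiLtJ 98.8 and 103, WSB/EiJ 91.9 and 113, and DBA/2J 102, all below the lowest C57BL/6J line, while CAST/EiJ had 357 and 352 and PWK/PhJ 472, 558 and 485. The differences from C57BL/6J were -2.0 ± 0.46 in NOD/ShiLtJ, -2.06 ± 0.46 in NZO/HiLtJ and -2.04 ± 0.46 in WSB/EiJ (edgeR adjusted p = 0.0166, 0.0242 and 0.0191). Each call was lost when either line of that strain was left out. For this gene 16 near-identical genes are annotated.

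Rpl21 and Rpl12 divided the strains in other ways. Rpl21 averaged 644 CPM in C57BL/6J and 610 in WSB/EiJ, and 331 to 408 in the other strains. Rpl12 averaged 389 CPM in WSB/EiJ (401 and 377) and 549 in PWK/PhJ, against 931 in C57BL/6J. The retrocopy Rpl37rt (chr5:115102923-115110268, minus strand) was read at 55.9 CPM in PWK/PhJ (51.3, 60.4 and 56.0) and 59.6 in CAST/EiJ (61.6 and 57.5), and at 4.13 to 7.17 in every EpiSC library of the other strains. Its log2 difference was 3.19 ± 0.14 and 3.28 ± 0.15 (edgeR adjusted p = 1.55e-09 and 2.96e-09).

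**Figure D4:**
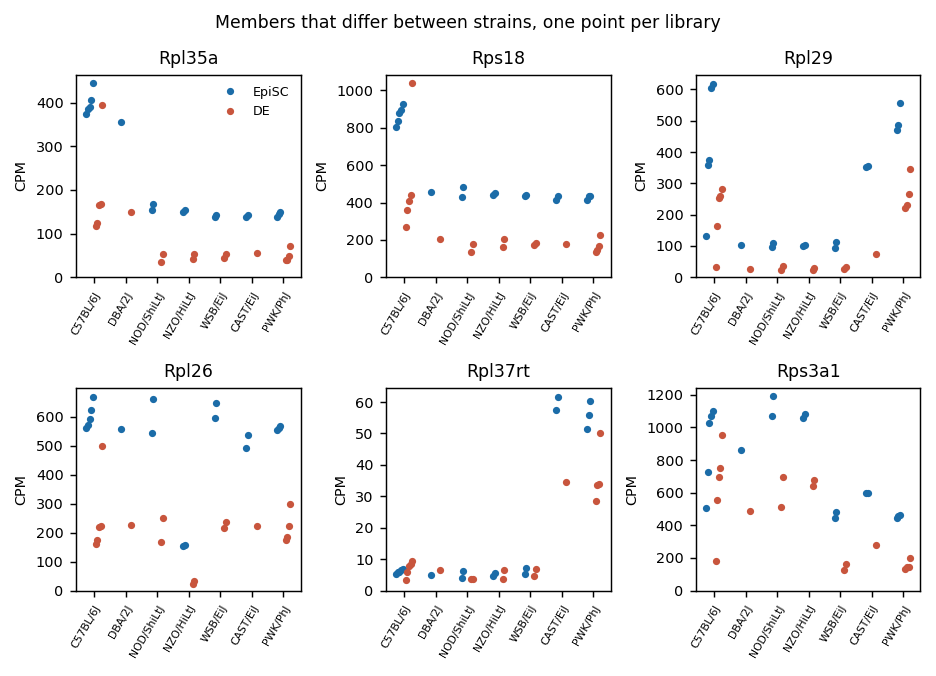
CPM (linear y axis, 1 point per library) of Rpl35a, Rps18, Rpl29, Rpl26, Rpl37rt and Rps3a1, by strain and cell type. Low Rpl26 in NZO/HiLtJ, at 154 and 157 CPM in EpiSC, is seen in both cell types. For Rps18 in DE, NZO/HiLtJ and WSB/EiJ were not called against C57BL/6J (edgeR adjusted p = 0.141 and 0.0854). Without the DE library of line 2, WSB/EiJ was called (0.0234) and NZO/HiLtJ was not (0.0575).

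Read as contrasts with the same 5 C57BL/6J libraries, which all 5 contrasts share, PWK/PhJ and CAST/EiJ had the most calls (29.8% and 31.6% of all genes in either direction). In PWK/PhJ 33 genes were lower and 2 higher, against 16.1% and 13.7% of all genes, with a median of -0.20 (all genes -0.01). All 15 fibroblast markers lay above C57BL/6J in PWK/PhJ and in NOD/ShiLtJ EpiSC, with medians of 1.17 and 0.98, though 0 of 15 passed the test in either; the part of this in the result was not tested. In CAST/EiJ 30 were lower and 3 higher, against 17.1% and 14.5%, with a median of -0.15 (all genes -0.01); with line WM078 or WM080 left out, 15 were called. The CAST/EiJ EpiSC lines also had 6 of 7 endoderm markers called higher than C57BL/6J and 1 of 15 fibroblast markers (median 0.73), and the part of this in the result was not tested. In NOD/ShiLtJ 8 were lower and 2 higher, against 6.94% and 5.98% (12.9% in either direction), in NZO/HiLtJ 6 lower and 0 higher, against 2.82% and 2.7% (5.52% in either direction), and in WSB/EiJ 8 lower and 1 higher, against 3.96% and 3.45% (7.41%). The medians of the last 3 were 0.04, 0.04 and -0.01. Rpl13a, which is also known for silencing inflammatory messages, was higher in PWK/PhJ by 0.40 ± 0.06, in NOD/ShiLtJ by 0.25 ± 0.07, in WSB/EiJ by 0.43 ± 0.07 and in CAST/EiJ by 0.42 ± 0.07 (edgeR adjusted p = 0.000371, 0.0365, 0.00196 and 0.00065). Its NOD/ShiLtJ call was lost under several alternatives, as was that of Rpl24 in NOD/ShiLtJ (1.29 ± 0.36, edgeR adjusted p = 0.0324), a gene read at 0.212 to 1.59 CPM with 71.5% of its exon bases shared with Gm28037. In CAST/EiJ, Rps4l differed by -1.79 ± 0.62 and Rps3a2 by 2.26 ± 0.75 (edgeR adjusted p = 0.0455 and 0.0371), and both calls were lost without either CAST/EiJ line.

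For several genes, a named pseudogene row was read in some of the strains where the gene was lower. The 4 pairs given here were chosen after their values were seen. Rps2 averaged 1770 ± 159 CPM in C57BL/6J EpiSC (SD, n = 5), 1180 ± 92.9 in PWK/PhJ (n = 3), 921 ± 6.51 in WSB/EiJ and 818 ± 19.4 in CAST/EiJ (n = 2 each). Rps2-ps13 was at most 0.316 CPM in C57BL/6J, and averaged 244, 543 and 449 in PWK/PhJ, WSB/EiJ and CAST/EiJ. The sum of the pair was 1770 CPM in C57BL/6J and 1430, 1460 and 1270 in those strains. Rps2 also averaged 1450 CPM in NOD/ShiLtJ, 1480 in NZO/HiLtJ and 1270 in DBA/2J, where Rps2-ps13 was at most 0.269. With all named rows summed the WSB/EiJ difference of Rps2 went from -0.96 (edgeR adjusted p = 0.000222) to -0.29 (0.181), that of PWK/PhJ from -0.59 to -0.32 (0.0306) and that of CAST/EiJ from -1.12 to -0.49 (0.00684), so 2 of the 3 calls were kept.

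Rps26, at the messenger RNA exit of the small subunit, averaged 634 ± 133 CPM in C57BL/6J (SD, n = 5) and 129 ± 10.4 in PWK/PhJ (n = 3), the widest fall in that contrast at -2.30 ± 0.18 (edgeR adjusted p = 6.85e-07). Rps26-ps1 was 272 to 340 CPM in PWK/PhJ and 0.462 to 1.82 in C57BL/6J, and the summed difference was -0.57 (0.0204). Rps24 was lower in NOD/ShiLtJ at -0.52, where Rps24-ps3 was 222 and 286 CPM against 1.04 to 1.77 in C57BL/6J, and the summed difference was -0.13 (edgeR adjusted p = 0.275). It stayed called after summing in PWK/PhJ at -0.40 (0.000428) and in WSB/EiJ at -0.30 (0.0259), where Rps24-ps3 was 209 to 240 CPM. Rps19 was lower in CAST/EiJ at -0.97, where Rps19-ps6 was 230 and 239 CPM against 0.751 to 1.18, and the summed difference was -0.15 (edgeR adjusted p = 0.155). In PWK/PhJ, with Rps19-ps6 at 203 to 212 CPM, it went from -0.91 to -0.19 and stayed called (0.0458). In the F test over EpiSC strains, summing named pseudogene rows into their genes left 33 of the 39 calls, and Rpl10a, Rpl17, Rps15a, Rps19, Rps2 and Rps26 no longer passed. For Rps18, which has 2 named pseudogene rows, the PWK/PhJ difference was -1.03 with and without them. For this gene 6 near-identical genes are annotated, and it shares exact 100-base stretches with 7 other genes over 57.3% of its length. Only rows named as a pseudogene of the gene were summed. Copies under other names were not in any of these sums, and their part was not tested.

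**Figure D5:**
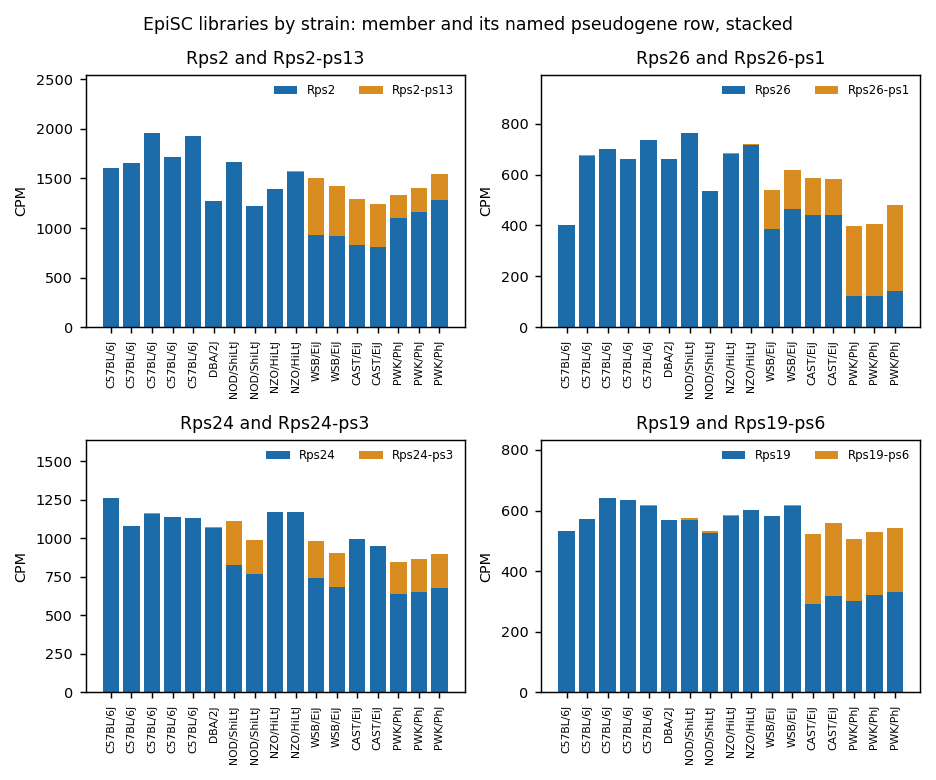
CPM in each EpiSC library, ordered by strain, of 4 ribosomal protein genes (blue) with a named pseudogene row stacked on top (orange). Rps2-ps13 is seen in PWK/PhJ, WSB/EiJ and CAST/EiJ, where Rps2 itself averages 1180, 921 and 818 CPM against 1770 in C57BL/6J.

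In DE 16 of 86 genes passed the strain F test, against 22.3% of all 19290 genes, led by Rpl37rt (1.55e-05), Rpl29 (0.000397), Rpl35a (0.000825), Rps3a1 (0.00102), Rpl26 (0.00171) and Rps18 (0.00495), all edgeR adjusted p. Without the DE library of line 2, 23 were called, and without NOD/ShiLtJ line AC576 or WSB/EiJ line AC627, 9 were; without NZO/HiLtJ line AC671, WSB/EiJ line AC635 or PWK/PhJ line AC705, 10 were. With named pseudogene rows summed in, 11 were called. Shares of all genes called in these alternative fits are not given here. Rpl35a had 166, 394, 118, 167 and 124 CPM in the C57BL/6J DE lines 1, 2, 4, 5-1 and 44 and 150 in DBA/2J. The DE libraries of CAST/EiJ, WSB/EiJ, NZO/HiLtJ, NOD/ShiLtJ and PWK/PhJ had 34.6 to 71.2 CPM, all below those. The difference from C57BL/6J was -1.90 ± 0.33 in PWK/PhJ, -2.03 ± 0.44 in NOD/ShiLtJ, -1.98 ± 0.44 in NZO/HiLtJ and -1.98 ± 0.44 in WSB/EiJ (edgeR adjusted p = 0.00108, 0.00854, 0.0378 and 0.0264). Without line 2 these were -1.46, -1.58, -1.55 and -1.55, all called. The NOD/ShiLtJ call was lost without line AC576.

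The contrasts in DE again share their 5 C57BL/6J libraries, among them line 2. PWK/PhJ had 14 genes lower and 1 higher, against 7.47% and 9.66% of all genes (17.1% in either direction), with a median of -0.31 (all genes -0.01), and 3 of 14 fibroblast markers were also called higher there. With 1 PWK/PhJ line left out, AC695, AC698 or AC705, 7 or 8 genes were called. NOD/ShiLtJ had 4 lower and 1 higher, against 3.38% and 7.98% (11.4%), with a median of -0.36 (all genes -0.05), and 13 of 14 fibroblast markers higher and 6 of 7 endoderm markers lower. With the fibroblast score as a covariate 1 gene was called in NOD/ShiLtJ, without line AC576 0 and without AC595 2, and 3 were called without NZO/HiLtJ line AC671, PWK/PhJ line AC695, AC698 or AC705, or either WSB/EiJ line. NZO/HiLtJ had 3 lower and 0 higher, against 0.492% and 0.918% (1.41%), and WSB/EiJ 5 lower and 0 higher, against 1.09% and 1.19% (2.28%). The medians of NZO/HiLtJ and WSB/EiJ were -0.23 and -0.22. Without NZO/HiLtJ line AC671 or AC653 the first count was 1 and 0, and without either WSB/EiJ line the second was 0. The sign of these 4 medians depended on the DE library of line 2: without it they were 0.11 in PWK/PhJ, 0.03 in NOD/ShiLtJ, 0.16 in NZO/HiLtJ and 0.15 in WSB/EiJ. The counts were then 13 lower and 4 higher in PWK/PhJ, 5 lower and 1 higher in NOD/ShiLtJ, 4 lower in NZO/HiLtJ and 7 lower in WSB/EiJ, against 19.7%, 15.9%, 1.83% and 2.9% of all genes called in either direction.

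Rpl29 was lower in DE of NOD/ShiLtJ (34.4 and 23.5 CPM), NZO/HiLtJ (29.1 and 24.4) and WSB/EiJ (32.3 and 27.2) than in C57BL/6J lines 1, 2, 4 and 5-1 (254, 260, 164 and 281), but C57BL/6J line 44 had 34.1. The differences were -2.67 ± 0.57, -2.81 ± 0.58 and -2.71 ± 0.58 (edgeR adjusted p = 0.00768, 0.0231 and 0.0197), and without line 2 they were -2.54, -2.69 and -2.59, all called. Each was lost without a line of its strain (AC576 for NOD/ShiLtJ, either line for the others). Rps3a1 was lower in PWK/PhJ, at 131 to 199 CPM, and in WSB/EiJ, at 162 and 128, than in C57BL/6J lines 1, 2, 4 and 5-1 (697, 951, 555 and 753), while line 44 had 182 and lay within the PWK/PhJ range. The differences were -1.94 ± 0.33 and -2.09 ± 0.44 (edgeR adjusted p = 0.000828 and 0.0188), and without line 2 they were -1.73 and -1.89, both called. The WSB/EiJ call was lost without either of its lines. Rps4l was higher in NOD/ShiLtJ DE, at 72.4 and 86.9 CPM against 3.33 to 37.6 in C57BL/6J (2.17 ± 0.66, edgeR adjusted p = 0.0449, and 2.59 ± 0.66, 0.0169, without line 2), a call lost under most single-library omissions.

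A strain by cell type term asked whether strains differed in their EpiSC to DE difference. No gene of the 87 was called (edgeR), against 10.7% of all genes, and 1 gene, Rpl24, had an unadjusted p under 0.05 (edgeR adjusted p = 0.165). DESeq2 called 1, Rpl24 (adjusted p = 0.038), a gene read at medians of only 0.827 CPM in EpiSC and 0.636 in DE. With no filter on low counts edgeR called 7, among them Rps3a1 (adjusted p = 4.86e-06), Rpl29 (0.00176) and Rpl26 (0.00262). Without the DE library of line 2, 4 genes were called by edgeR: Rpl28 (adjusted p = 0.0131), Rpl22l1 (0.0234), Rps26 (0.0281) and Rpl26 (0.034). Without the DE library of line 44, 1 was called, Rps3a1 (0.0121). Shares of all genes called under these alternatives are not given here.

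The retrocopies of Rps3a1 divided the C57BL/6J lines themselves. Rps3a3 (chr13:108670603-108671397, plus strand) had 1.08, 124, 0.883, 0.914 and 235 CPM in EpiSC lines 1, 2, 4, 5-1 and 44, and 1.09, 303, 1.09, 0.675 and 187 in the DE libraries of the same lines. Lines 2 and 44 were high in both cell types and the other 3 lines were near 1 in both. PWK/PhJ and WSB/EiJ had 202 to 299 CPM over both cell types, and the other strains 0.77 to 2.42. Rps3a2 followed the same lines in EpiSC, with 1.62, 14, 3.2, 2.29 and 24.5 CPM. Rps3a1 itself had 1100, 725, 1070, 1030 and 505 CPM in EpiSC, lowest in lines 44 and 2, whereas in DE line 44 was lowest and line 2 highest. Pseudogene rows of other genes gave the same division: Rpl3-ps1 had 92 and 92.4 CPM in EpiSC lines 2 and 44 and 5.73 to 10.1 in the other C57BL/6J lines, and Rps13-ps1 had 23 and 20.4 against at most 0.114. What separates these lines was not given in the sources used here. Without lines 2 and 44 in either cell type, an alternative chosen after seeing the data, the CAST/EiJ difference of Rps3a2 in EpiSC was 4.19 (edgeR adjusted p = 1.24e-07), and the count for WSB/EiJ in DE was 9 in place of 5.

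Nearly all of these genes have copies that could take or give reads. In GENCODE M21, 34 of the 90 had at least 1 gene with at least 95% identity over at least 80% of the transcript, 81 shared an exact 100-base stretch, the read length, with another gene, and 60 had named pseudogene rows in the tables, 254 rows in all. In the EpiSC F test 17 of 33 genes with a near-identical copy and 22 of 54 without were called, 27 of 60 with named pseudogene rows and 12 of 27 without. Of the 5 tested genes with none of these signs, Rps27l and Rps3 were called. Among all 17868 genes tested 40% were called, so these counts are not read as a result about copies. The treatment of reads with several matches was not given in the sources used here. Values of genes with a near-identical copy or a shared 100-base stretch are therefore uncertain. Rps19, Rps24, Rps26, Rpl21 and Rpl35a, for example, have no near-identical gene by this rule but share such stretches. Exons of Rps10 (91.6%), Rpl13a (59.3%), Rpl35 (68.3%) and Rpl5 (46.6%) are also overlapped by another annotated gene.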

How the data were processed

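Polyadenylated RNA of 17 EpiSC and 17 DE libraries was read as paired 100-base reads. The deposited values are raw counts per gene, 1 table per cell type; per the submitters' processing notes the authors used STAR 2.4, HTSeq 0.6.1, mm10 and DESeq2. Annotation release, strand setting and multiple matches were not given in the sources used here. The strain 129S1/SvImJ was not analysed here, and 1 gene is counted with the others but not reported here by name.

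The genes, lists and tests were chosen with earlier results of these data known. Counts were tested over the whole table with edgeR 4.0.16 (TMM, quasi-likelihood F test; R 4.3.3) after a filter that asked for 10 counts or more in 3 libraries of the fit (passed by 87 of the 90 genes; 86 in DE); a call is a Benjamini-Hochberg adjusted p under 0.05. DE against EpiSC had strain as a covariate. Strain tests were run within each cell type, with C57BL/6J as reference (DBA/2J, and CAST/EiJ in DE, have 1 library and no contrast). The strain F tests and the strain by cell type test used PWK/PhJ, NOD/ShiLtJ, NZO/HiLtJ and WSB/EiJ against C57BL/6J. CAST/EiJ was in none of these F tests. CPM and log2 CPM (prior count 2) used TMM-scaled totals, and shares used total counts. Named genes were all paralogs, the 8 largest called log2 differences in each direction between DE and EpiSC, the 2 largest in each direction per strain contrast (and per further list, for DE against EpiSC), the 6 smallest p-values per F test, and the 3 highest and 3 lowest genes per length in each cell type; other names were chosen after their values were seen. Alternatives were DESeq2 1.42.0, no low-count filter, TMM without these genes, summed pseudogene rows, a fibroblast marker covariate, no strain term, the cell line as a block and leaving out each library. The script was tested on simulated counts. Near-identical copies were found by transcript alignment (BLAST 2.17.0), since a comparison of proteins was not possible. Sequences are from RefSeq (GRCm38.p6), gene models from GENCODE M21.

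The EpiSC and DE libraries of a line share cells of origin by their labels. The correlation of their deviations from the strain mean over 14 lines was -0.00014 to 0.14 (median 0.04). No libraries of a group agreed within sampling noise (chi-square per degree of freedom at least 6.57 in EpiSC and 31.5 in DE). The upper limit given for Rpl10l covers counting error only. After ±, log2 differences carry the SE of the edgeR fit and mean CPM values the SD over libraries.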

Additional observations from a re-analysis of the deposited data

Results flagged for a closer look

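Dixon's criterion was applied to 102 groups of 4 to 10 libraries, for the share of counts and the 33 genes named. In 17 of them the highest or lowest library lay far from the others. Chance alone meets the criterion in about 1 in 20 independent groups. These groups share libraries, and their genes were named partly for their values, so the count is not set against that rate. Of the 17, 9 were the DE library of C57BL/6J line 2 against the other C57BL/6J DE lines. Its share of counts in the 90 genes was 5.46% against 2.22 to 2.85%. Its log2 CPM was 8.96 for Rpl26 (others 7.34 to 7.79), 8.47 for Rpl28 (6.83 to 7.27), 8.62 for Rpl35a (6.89 to 7.38), 11.18 for Rpl4 (10.58 to 10.74), 9.51 for Rpl7a (8.16 to 8.47), 11.16 for Rps2 (9.94 to 10.27), 3.28 for Rps27rt (1.11 to 1.71) and -1.78 for Rpl39l (all others -4.0, the value of 0 counts with the prior count).

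The DE library of line 44 was low for Rpl29, at 5.1 against 7.36 to 8.14. The EpiSC library of line 1 was low for Rplp1 at 8.63 (9.89 to 10.27), Rpl27a at 8.39 (8.95 to 9.12), Rpl41 at 9.37 (9.72 to 9.82), Rps26 at 8.65 (9.37 to 9.52) and Rps4l at 2.21 (4.51 to 5.2). The EpiSC library of line 5-1 was high for Rpl24 at 0.18 (-1.1 to -0.79), and that of line 44 for Rpl3l at -3.39 (all others -4.0). Rpl3l had 29 counts over all 17 EpiSC libraries and -4.0 is the value of 0 counts, so this value lies at the floor.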

How the results depend on the processing

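The count of genes called between DE and EpiSC was 79 and stayed at 79 to 82 without any 1 library. With the cell line as a replicate block it was 80 (74 lower, 6 higher), and the interaction test called 0 with the block; the block changed no call count by over 1.5 times. Without 1 library the counts were 32 to 47 (39 with all) for the EpiSC strain F test, 29 to 44 (35) for PWK/PhJ, 15 to 38 (33) for CAST/EiJ, 7 to 12 (10) for NOD/ShiLtJ, 4 to 7 (6) for NZO/HiLtJ and 6 to 11 (9) for WSB/EiJ in EpiSC. In DE they were 9 to 23 (16) for the F test, 7 to 17 (15) for PWK/PhJ, 0 to 6 (5) for NOD/ShiLtJ, 0 to 4 (3) for NZO/HiLtJ, 0 to 7 (5) for WSB/EiJ, and 0 to 4 (0) for the interaction. Where 1 library of a strain is left, it is assumed to vary like the other strains.

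With no filter on low counts, the DE F test called 30, PWK/PhJ 28, NOD/ShiLtJ 12, NZO/HiLtJ 8, WSB/EiJ 12 and the interaction 7. DESeq2 called 9 in NOD/ShiLtJ DE, 7 in NZO/HiLtJ DE and 1 in the interaction. TMM without the ribosomal protein genes gave 3 in NOD/ShiLtJ DE. The fibroblast covariate gave 25 in PWK/PhJ DE and 1 in NOD/ShiLtJ DE. Summed pseudogene rows gave 9 in PWK/PhJ DE. Without C57BL/6J lines 2 and 44, chosen after seeing the data, WSB/EiJ DE had 9 and the interaction 3. The cause of these moves was not tested. Shares of all genes called under the alternatives and omissions of this section are not given, so the moves are not read as particular to these genes. Of 61 single-gene results, 47 kept call and direction under every alternative other than leaving out 1 library, 44 under every such omission, and 0 reversed.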
